A study of Rattus norvegicus with 18 samples.

Results

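Dysferlin and 9 genes of the membrane repair machinery, 10 genes of the 31463 rows in the files, were followed across rat cortical cultures exposed to glutamate. They are Dysf and its close relative Myof, the annexins Anxa1, Anxa2, Anxa4, Anxa5 and Anxa6, the annexin partners S100a10 and S100a11, and the scaffold gene Ahnak. Dysf was selected on its measured values, because it was high in the cultures that had received vesicles, and the other 9 genes were added as its family and partners. All differences of Dysf that involve the vesicle group are therefore given as a description. All 10 genes had a row and passed the filter on low counts, which left 14398 genes to be tested. The filter asked for at least 3 libraries at 0.872 CPM (counts relative to library size, here before any scaling factor), which Myof reached in 13 of the 18 libraries, S100a11 in 14 and the other 8 genes in all 18.

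The plasma membrane of a torn cell is resealed within moments of calcium entry. Dysferlin, a membrane protein with several calcium-binding C2 domains, is known for bringing vesicles to the wound in skeletal muscle, where its loss causes muscular dystrophy. Annexins bind acidic phospholipids in the presence of calcium and gather at the edges of the wound, S100 proteins tie annexins into larger complexes, and the very large protein AHNAK sits beneath the membrane and binds dysferlin and the complex of annexin A2 with S100A10. Excitotoxicity, the injury of neurons by excess glutamate, also begins with calcium entry.

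RNA came from primary neuroglial cultures of the cortex of newborn Wistar rats, in which neurons and glial cells grow together, and a mitosis blocker had been used to limit glial growth. The 18 libraries form 6 groups of 3, namely Control without glutamate, Glutamate (100 µM), Memantine (100 µM of this NMDA receptor blocker, placed in the glutamate model by the design text though its label does not name glutamate), and glutamate after a preparation from human glial progenitor cells in Glutamate_vesicles, Glutamate_secret and Glutamate_BPC. The preparations were extracellular vesicles, a protein fraction and the whole secretome, and the labels do not tell which of the latter pair is Glutamate_secret and which is Glutamate_BPC. Cultures were 10 days old, the preparations were given the day before glutamate, and RNA was taken after a further 4 h in medium once the glutamate exposure had ended. Levels are given in CPM, the counts of a gene relative to the TMM-scaled size of its library, and since transcript lengths do not enter CPM, levels are compared between groups of one gene and not between genes. The paper speaks in general of repeated cultures of unrelated cells and of a day covariate, but the labels tie no library to a culture, animal or day, so p-values measure the spread between these libraries, which may be technical.

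The libraries held between 8409574 and 17206354 counts, and ribosomal RNA took between 3.04% and 43.0% of them, with the highest share in Control 1. The libraries with replicate number 2 held 3.04% to 8.15% ribosomal RNA in all 6 groups, those with number 1 held 13.4% to 43.0%, and those with number 3 held 6.58% to 26.6%. Markers of neurons and astrocytes were abundant in each library. The summed CPM of 10 neuronal markers was 2228 to 2939 in Control, 637 to 1200 in Glutamate, 697 to 3655 in Memantine and 543 to 1155 over the groups with a preparation. In bulk RNA a loss of cells of a type and a loss of RNA per cell cannot be told apart. The defining markers of endothelial cells were near 0, with a sum of at most 10.2 CPM over 9 genes in any library, and so were those of skeletal muscle, with at most 12.7 CPM over 8 genes.

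Dysf was lowest in Control and highest with vesicles. It stood at 3.71, 4.96 and 7.11 CPM in the 3 Control libraries, at 11.5, 12.5 and 7.49 CPM in Glutamate and at 14.6, 7.67 and 5.68 CPM in Memantine. With a preparation it stood at 58.4, 35.8 and 79.1 CPM in Glutamate_vesicles, at 20.3, 40.6 and 15.7 CPM in Glutamate_secret and at 23.9, 21.4 and 21.5 CPM in Glutamate_BPC. All 9 libraries with a preparation lay above all 9 libraries without one. The order of the group means was Glutamate_vesicles (57.8 ± 21.7 CPM, SD, n = 3), Glutamate_secret (25.6 ± 13.2 CPM), Glutamate_BPC (22.3 ± 1.43 CPM), Glutamate (10.5 ± 2.65 CPM), Memantine (9.32 ± 4.69 CPM) and Control (5.26 ± 1.72 CPM). Of the 5 neighbouring pairs in this order, only Glutamate_BPC and Glutamate did not overlap. The vesicle mean was 2.26 times that of Glutamate_secret and 2.60 times that of Glutamate_BPC, and because Glutamate_secret 2 lay above Glutamate_vesicles 2 the former pair overlapped. The difference between the preparations was not tested.

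**Figure D1:**
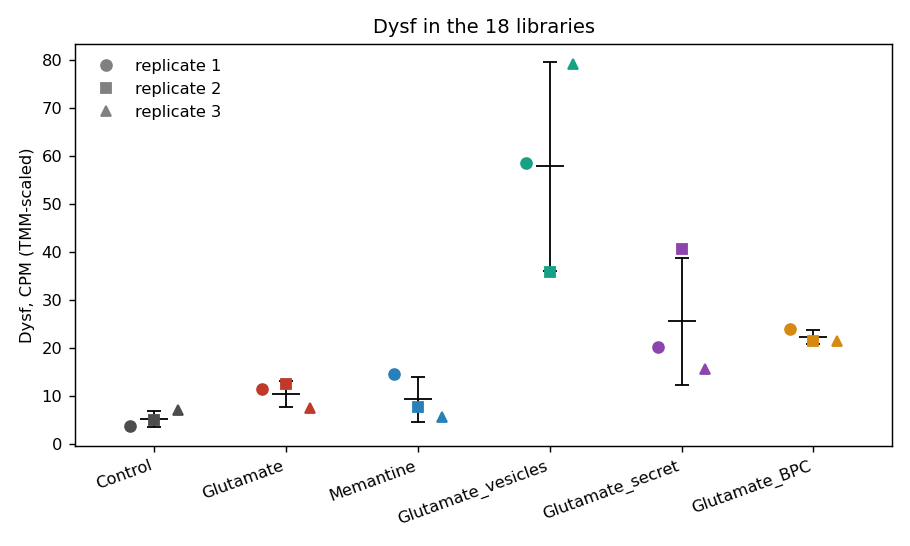
Level of Dysf in CPM (vertical axis) in the 6 groups, with 1 symbol per library, its shape giving the replicate number, and with the group mean (horizontal line) ± SD. The Glutamate_vesicles libraries sit at 35.8 to 79.1 CPM, and the lowest library with any preparation, at 15.7 CPM, lies above the highest without one, at 14.6 CPM.

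Against Glutamate, the log2 fold change of Dysf was 2.46 (SE 0.46) with vesicles, 1.29 (SE 0.45) in Glutamate_secret and 1.08 (SE 0.45) in Glutamate_BPC. The latter differences had an adjusted p = 1.00 for both in the quasi-likelihood test of edgeR, so neither passed the threshold of 0.05. They share the Glutamate libraries with the contrast on which Dysf was selected. When libraries of the same replicate number were set side by side, Dysf was higher by 1.51 to 3.38 on the log2 scale with vesicles, 0.81 to 1.69 in Glutamate_secret and 0.77 to 1.501 in Glutamate_BPC. Because none of these groups overlapped with Glutamate, any matching of libraries gives only higher values. Glutamate alone gave a log2 fold change of 0.98 (SE 0.45) over Control without overlap between the groups, and its adjusted p = 0.599 missed the threshold. Memantine differed from Glutamate by -0.18 (SE 0.44, adjusted p = 0.999), a value that was 0.075 without Memantine 3.

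Over Control, the log2 fold change of Dysf was 3.44 (SE 0.49) with vesicles, 2.27 (SE 0.46, adjusted p = 0.126) in Glutamate_secret and 2.06 (SE 0.46, adjusted p = 0.295) in Glutamate_BPC. The last 2 values share the Control libraries with the vesicle value. They did not pass the threshold of 0.05 in the edgeR quasi-likelihood test. They passed it under edgeR's likelihood-ratio test, the kind of test the study used, with adjusted p = 0.00676 and adjusted p = 0.0284. The value without Glutamate_secret 2, the highest library of its group, was 1.76 in place of 2.27.

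The promoter bases of 4 genes are shown because Dysf was selected for its level with vesicles, S100a11 and Anxa5 had the smallest p-values of the other members there, and Anxa2 was the only one of 8 members with an AP-1 motif in its promoter. Each line gives the 250 bases before the annotated start of the gene, in the gene's own direction, from RefSeq on the build GRCr8, which is not the build (rn6) used for the deposited values. Capitals mark matches on either strand to the AP-1 motif TGACTCA, the TEAD motif GGAATG, the cAMP response element core TGACGTCA and the GC box GGGCGG. The windows lie at chr4:118059918-118060167 (plus strand) for Dysf, chr2:181874882-181875131 (plus strand) for S100a11, chr2:121272697-121272946 (minus strand) for Anxa5 and chr8:78986002-78986251 (plus strand) for Anxa2.
Dysf: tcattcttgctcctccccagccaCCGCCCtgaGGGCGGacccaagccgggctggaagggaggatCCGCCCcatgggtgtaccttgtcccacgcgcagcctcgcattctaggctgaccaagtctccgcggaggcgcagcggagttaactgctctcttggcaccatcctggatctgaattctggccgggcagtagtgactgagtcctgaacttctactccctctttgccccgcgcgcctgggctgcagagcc
S100a11: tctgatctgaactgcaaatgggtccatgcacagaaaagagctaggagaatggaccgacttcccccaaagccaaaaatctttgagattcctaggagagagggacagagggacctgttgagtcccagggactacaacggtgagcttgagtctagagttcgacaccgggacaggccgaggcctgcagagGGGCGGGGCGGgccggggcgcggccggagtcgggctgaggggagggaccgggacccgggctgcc
Anxa5: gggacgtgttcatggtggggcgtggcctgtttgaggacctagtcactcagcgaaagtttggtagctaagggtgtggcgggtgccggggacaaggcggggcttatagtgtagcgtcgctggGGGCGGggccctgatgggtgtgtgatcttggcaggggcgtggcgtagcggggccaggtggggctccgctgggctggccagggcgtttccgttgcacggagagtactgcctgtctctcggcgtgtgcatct
Anxa2: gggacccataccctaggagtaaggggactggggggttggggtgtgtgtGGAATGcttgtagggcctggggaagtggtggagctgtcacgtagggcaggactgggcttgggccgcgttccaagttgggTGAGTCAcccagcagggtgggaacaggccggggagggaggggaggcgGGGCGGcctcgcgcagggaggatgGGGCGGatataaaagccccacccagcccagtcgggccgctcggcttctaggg
The Dysf window held 3 GC boxes at 227, 218 and 186 bases before the start, and S100a11 held 2 that overlap, at 64 and 59 bases. Anxa5 held 1 at 130 bases. Anxa2 held the AP-1 motif at 123 bases, a TEAD motif at 202 bases and GC boxes at 76 and 52 bases. A GC box was found in 7 of the 8 members with an entry and in 30.5% of all 33469 promoters of that length, an AP-1 motif in 1 of 8 and 4.05%, a TEAD motif in 3 of 8 and 12.1%, and the cAMP element in 0 of 8 and 1.59%. Anxa6 and S100a10 had no entry. These matches describe letters in a window and were not tied to the measured differences.

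Myof encodes myoferlin, a ferlin like dysferlin that is best known from fusing muscle precursors. Its counts were low, between 0 and 137. Its levels were 0, 0.442 and 1.02 CPM in Control, 0.129, 1.84 and 1.75 CPM in Glutamate and 0.644, 1.28 and 1.29 CPM in Memantine, where the count of 0 in Control 1 allows a level of up to 0.857 CPM by counting error alone. They were 2.49, 2.93 and 6.66 CPM in Glutamate_vesicles, 1.89, 5.71 and 2.72 CPM in Glutamate_secret and 1.18, 1.33 and 0.759 CPM in Glutamate_BPC. Unlike Dysf, Myof in Glutamate_BPC lay within the range of Glutamate. The vesicle and Glutamate_secret libraries lay above all libraries of Control, Glutamate and Memantine.

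Anxa1 encodes annexin A1, which is also known as a mediator that resolves inflammation. The 3 libraries read 5.71, 4.42 and 38.8 CPM in Control, 22.9, 10.3 and 41.9 CPM in Glutamate and 5.80, 5.33 and 50.2 CPM in Memantine. With a preparation it stood at 50.4, 47.1 and 58.6 CPM in Glutamate_vesicles, 59.7, 35.5 and 53.6 CPM in Glutamate_secret and 55.7, 51.6 and 44.9 CPM in Glutamate_BPC. In the groups without a preparation the library with number 3 was the highest, while all libraries with a preparation lay between 35.5 and 59.7 CPM. The SD was 19.5 CPM around a mean of 16.3 CPM in Control and 5.92 CPM around 52.1 CPM with vesicles.

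Anxa2 encodes annexin A2, which joins with S100A10 into a tetramer at the inner face of the membrane. Anxa2 was measured at 8.57, 15.3 and 52.1 CPM in Control, 107, 27.7 and 81.7 CPM in Glutamate and 42.8, 15.5 and 101 CPM in Memantine. After the preparations its levels were 110.1, 102 and 131 CPM in Glutamate_vesicles, 91.7, 78.8 and 66.6 CPM in Glutamate_secret and 106.2, 110.0 and 108 CPM in Glutamate_BPC. Every library with a preparation was above every Control library, and the Glutamate libraries spread across both ranges. The SD in Glutamate_BPC was 1.89 CPM, against 40.7 CPM in Glutamate.

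S100a10, the partner of Anxa2, was measured at 92.2, 32.0 and 119.8 CPM in Control, 528, 44.2 and 316 CPM in Glutamate and 177, 23.2 and 408 CPM in Memantine. With the preparations it reached 734, 216 and 520.0 CPM in Glutamate_vesicles, 680.5, 185 and 789.6 CPM in Glutamate_secret and 430.0, 300.1 and 418 CPM in Glutamate_BPC. Replicate number 2 was the lowest library in 6 of 6 groups, so that Glutamate 2 lay below Control 1 and 3, and Memantine 2 below all Control libraries. All 9 libraries with a preparation lay above all Control libraries.

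Anxa5 encodes annexin A5, which forms a lattice on damaged membranes and is widely used as a probe for exposed phosphatidylserine. Its libraries stood at 22.8, 27.7 and 38.5 CPM in Control, 42.1, 32.3 and 54.7 CPM in Glutamate and 32.6, 19.4 and 63.2 CPM in Memantine. The groups with a preparation stood at 83.2, 68.4 and 115 CPM in Glutamate_vesicles, 41.4, 71.5 and 51.4 CPM in Glutamate_secret and 52.7, 80.2 and 47.3 CPM in Glutamate_BPC. The vesicle libraries lay above all libraries of Control, Glutamate and Memantine and overlapped those of the other preparations, where number 2 was the highest.

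S100a11, whose protein binds annexins A1 and A2, had few counts in the libraries without a preparation. The level was 0.286, 0.294 and 1.78 CPM in Control, 3.23, 0.317 and 1.85 CPM in Glutamate and 1.18, 0.5 and 2.37 CPM in Memantine. Levels with a preparation were 34.7, 3.41 and 24.3 CPM in Glutamate_vesicles, 10.1, 2.96 and 2.72 CPM in Glutamate_secret and 6.52, 4.27 and 4.01 CPM in Glutamate_BPC. Glutamate_vesicles 1 and 3 stood apart from all other libraries, whereas Glutamate_vesicles 2 was only just above the highest Glutamate library. It was below Glutamate_secret 1 and below all Glutamate_BPC libraries. The counts behind these values were 1, 6 and 33 in Control and 348, 85 and 501 in Glutamate_vesicles.

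Anxa4 and Anxa6 encode further annexins, of which annexin A6 has a doubled core and is known to cap wounds of muscle fibres. Anxa4 was measured at 4.57, 1.57 and 4.74 CPM in Control, 2.71, 2.35 and 8.66 CPM in Glutamate, 1.18, 2.78 and 7.11 CPM in Memantine, 4.29, 4.61 and 5.98 CPM in Glutamate_vesicles, 5.20, 7.34 and 10.3 CPM in Glutamate_secret and 4.62, 7.15 and 7.38 CPM in Glutamate_BPC. Its vesicle libraries lay inside the range of the Glutamate libraries. Anxa6 was measured at 59.1, 92.4 and 104 CPM in Control, 139, 113 and 156 CPM in Glutamate, 115, 66.1 and 168 CPM in Memantine, 201, 118 and 144 CPM in Glutamate_vesicles, 150.4, 132 and 144 CPM in Glutamate_secret and 165, 132 and 189 CPM in Glutamate_BPC. The spread of Anxa6 over all 18 libraries was 3.39-fold, the least of the 10 members, and Control lay below all groups except Memantine.

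Ahnak was measured at 2.57, 4.47 and 32.4 CPM in Control, 12, 34.4 and 23.1 CPM in Glutamate and 13.5, 22.6 and 24.2 CPM in Memantine. It was measured at 7.18, 44.5 and 18 CPM in Glutamate_vesicles, 10.2, 27.8 and 12.1 CPM in Glutamate_secret and 10.5, 16.6 and 16.4 CPM in Glutamate_BPC. All groups overlapped. Replicate number 2 was above number 1 in 6 of 6 groups, as in Myof and the opposite of S100a10 and of Anxa1, in which it was below number 1 in 6 of 6.

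**Figure D2:**
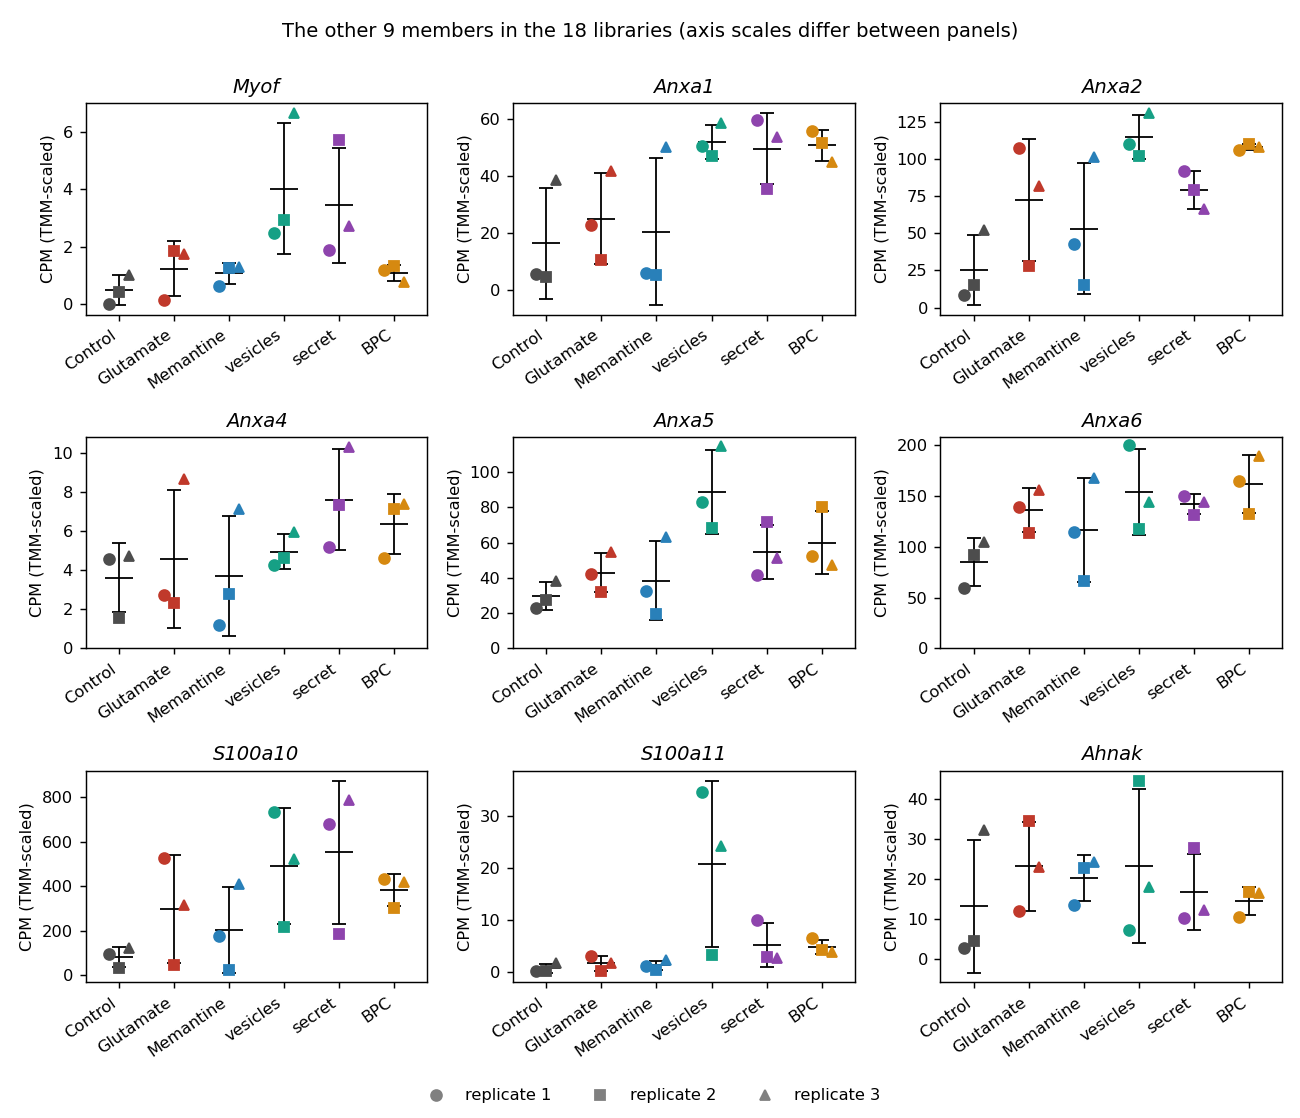
Levels of the other 9 members in CPM (vertical axes, which differ in scale) in the 6 groups, with 1 symbol per library, its shape giving the replicate number, and with the mean (horizontal line) ± SD. Anxa2 lies above all Control libraries in each library with a preparation, S100a11 is highest in Glutamate_vesicles 1 and 3 at 34.7 and 24.3 CPM, and the squares of S100a10 are the lowest in each group.

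The opposite placement of S100a10 and Ahnak in replicate numbers 1 and 2 went along with the ribosomal RNA share of those libraries. Between numbers 1 and 3, the library with more ribosomal RNA had more S100a10 in Glutamate_vesicles and Glutamate_secret and less in the other groups. S100a10 ranged from 23.2 to 300.1 CPM in the libraries with number 2 and from 92.2 to 734 CPM in those with number 1. Ahnak ranged from 4.47 to 44.5 CPM in the libraries with number 2 and from 2.57 to 13.5 CPM in those with number 1. The part of the ribosomal RNA share in these values was not tested apart from the replicate number. The ratio of the S100a10 to the Anxa2 counts, 2 partners of one complex, was 1.49 to 2.73 in the libraries with number 2 and 4.05 to 10.8 in those with number 1. In those with number 3 it was 2.30 to 11.9, across both ranges.

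**Figure D3:**
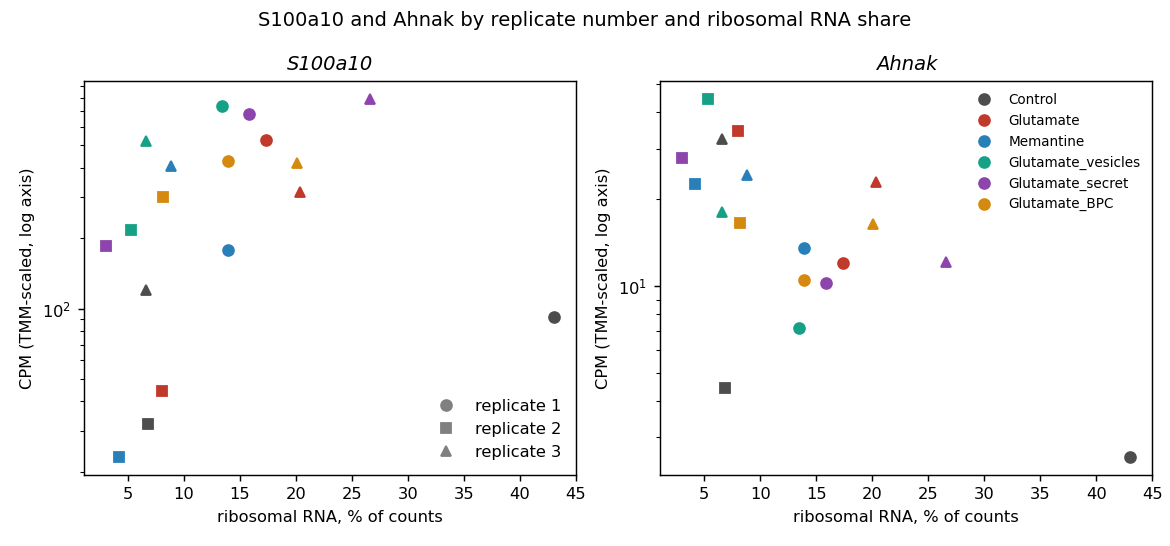
Levels of S100a10 (left) and Ahnak (right) in CPM on log axes against the percentage of counts from ribosomal RNA, with 1 symbol per library, colours for the 6 groups and shapes for the replicate number. The squares, replicate number 2, lie at 3.04% to 8.15% ribosomal RNA, lowest of their group for S100a10 and above replicate number 1 in each group for Ahnak.

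Glutamate against Control shows these genes under glutamate alone. All 10 members had a positive log2 fold change in Glutamate against Control, with a median of 0.89, beside a median of 0.08 over all genes tested. The values were 1.86 (SE 0.93) for S100a10, 1.502 (SE 0.66) for Anxa2, 1.16 (SE 0.86) for Myof, 1.03 (SE 0.98) for S100a11, 0.98 (SE 0.45) for Dysf, 0.80 (SE 0.79) for Ahnak, 0.67 (SE 0.36) for Anxa6, 0.60 (SE 0.84) for Anxa1, 0.53 (SE 0.41) for Anxa5 and 0.35 (SE 0.65) for Anxa4. None passed the adjusted threshold of the quasi-likelihood test of edgeR, and neither did any gene at all (0 of 14398, 0%). The paper, with a likelihood-ratio test and cutoffs on p-value and fold change, does report differing genes here. It also reports them for memantine and for vesicles against glutamate. At an unadjusted p below 0.05, 2 of 10 members, Dysf and Anxa2 (adjusted p = 0.566), stood beside 8.11% of all genes. In 2 of 10, Dysf and Anxa6, all Glutamate libraries were above all Control libraries, beside 4.48% of all genes. Markers of cell types moved in the same comparison. All 8 astrocyte markers were positive, with a median of 0.65 and a sum of 2954 to 6399 CPM in Control and 5676 to 11335 CPM in Glutamate, and all 10 markers of microglia and macrophages were positive, with a median of 1.01 and a sum of 39.1 to 110.2 CPM in Control and 105 to 315 CPM in Glutamate. All 10 neuronal markers were negative, with a median of -1.42. None of these markers passed the adjusted threshold, and their part in the levels of the members was not tested. Control 3 lay far above the other Control libraries in several members, and without it the value of Anxa1 was 2.32 in place of 0.60, that of Ahnak was 2.69 in place of 0.80 and that of Anxa2 was 2.59 in place of 1.502. Anxa1 was at 0.01 without Glutamate 3, S100a10 at 1.15 without Glutamate 1, S100a11 at 0.30 without Glutamate 1, and Anxa4 turned negative, to -0.50, without Glutamate 3.

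Glutamate_vesicles against Glutamate addresses what vesicles add under glutamate. S100a11 had the largest log2 fold change of the members in Glutamate_vesicles against Glutamate, 3.56 (SE 1.01), and Dysf followed at 2.46. The other values were 1.67 (SE 0.84) for Myof, 1.06 (SE 0.84) for Anxa1, 1.05 (SE 0.42) for Anxa5, 0.73 (SE 0.90) for S100a10, 0.66 (SE 0.65) for Anxa2, 0.18 (SE 0.36) for Anxa6, 0.12 (SE 0.64) for Anxa4 and 0.01 (SE 0.79) for Ahnak. The median of the 9 members without Dysf was 0.73, against -0.01 over all genes. None of the 9, and no gene at all (0%), passed the adjusted threshold of edgeR. The members with an unadjusted p below 0.05 were 2 of 9, S100a11 (adjusted p = 1.00) and Anxa5 (adjusted p = 1.00), beside 1.08% of all genes. In 4 of 9, Myof, Anxa1, Anxa5 and S100a11, all vesicle libraries were above all Glutamate libraries, beside 2.89% of all genes. Between libraries of the same number the difference of Anxa5 was 0.98 to 1.08 on the log2 scale and that of S100a11 was 2.94 to 3.62. Because the ranges of both genes lay apart, any matching of libraries gives only higher values. The numbers did not pair these samples (r = 0.0046 for number 3). Without Glutamate_vesicles 1 the value of S100a11 was 2.97, and without Glutamate_vesicles 3 that of Myof was 1.10. Anxa4, Anxa6 and Ahnak changed sign when single libraries were left out.

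Markers of other cell types differed beside these values, and none of the tested markers passed the adjusted threshold. The sum of 8 fibroblast markers was 11 to 58.2 CPM in Glutamate and 45.2 to 193 CPM in Glutamate_vesicles, and all 5 tested ones were positive, with a median of 1.12. Fn1 made up most of the sum, with means of 23.8 and 112 CPM, while Col1a1 had means of 2.22 and 4.78 CPM, Col1a2 of 1.31 and 2.84 CPM and Postn of 0.0635 and 2.26 CPM. Dcn and Lum were near 0, with means of at most 0.0649 CPM in both groups. The sum of 8 mural cell markers was 105 to 410.2 CPM in Glutamate and 329 to 676 CPM in Glutamate_vesicles, most of it Tagln, with all 4 tested ones positive (median 0.45) and Rgs5 at 0 in both groups. Of 8 astrocyte markers 7 were negative, with a median of -0.51 and a sum of 5676 to 11335 CPM in Glutamate and 3478 to 7107 CPM in Glutamate_vesicles. Of 8 markers of the oligodendrocyte lineage 6 were positive, with a median of 0.40 and a sum of 735 to 976 CPM in Glutamate and 881 to 1397 CPM in Glutamate_vesicles. Markers of microglia and macrophages were negative in 6 of 10 and those of neurons in 5 of 10. The part of such cells in the levels of the members was not tested.

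The other preparations were compared with Glutamate in the same way. In Glutamate_secret against Glutamate 9 of 10 members were positive with a median of 0.82, against -0.01 over all genes, and no member or gene (0%) passed the adjusted threshold. Besides Dysf no member had an unadjusted p below 0.05, where 0.681% of all genes did. Of the members besides Dysf, Myof alone lay wholly above Glutamate, beside 1.4% of all genes. In Glutamate_BPC against Glutamate 8 of 10 were positive with a median of 0.48, against -0.05 over all genes, and again no member or gene (0%) passed. No member besides Dysf had an unadjusted p below 0.05, where 1.07% of all genes did. Of the members besides Dysf, Anxa1 and S100a11 lay wholly above Glutamate, beside 2.88% of all genes. Both comparisons use the same Glutamate libraries as the vesicle comparison on which Dysf was selected. Dysf, which had an unadjusted p below 0.05 and no overlap in both, is therefore kept out of these counts. The signs and medians include it.

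Memantine served the study as the positive control of the model. All 10 members had a negative log2 fold change in Memantine against Glutamate, between -0.54 for S100a10 and -0.16 for Anxa5, with a median of -0.26 beside -0.02 over all genes. None of the 10 had an unadjusted p below 0.05, beside 5.08% of all genes, and none passed the adjusted threshold of edgeR (0% of all genes). All 10 overlapped between the groups. Memantine 3 stood apart from its group, with a sum of neuronal markers of 697 CPM beside 3655 and 2450 CPM in Memantine 1 and 2. Between the libraries with number 3, all members except Dysf, Myof and Anxa4 were higher in Memantine than in Glutamate. Only Anxa2 kept its sign in all 15 alternatives run, single libraries left out included, with values from -1.31 to -0.0051. Anxa1 and S100a11 kept theirs in 12 of 15 and Myof in 11 of 14. Markers of glia had the same sign here, with 8 of 8 astrocyte markers negative (median -0.31, sum 3713 to 10968 CPM in Memantine) and 10 of 10 markers of microglia and macrophages negative (median -0.58, sum 29.6 to 376 CPM). The 10 neuronal markers were all positive, with a median of 1.45. None of these passed the adjusted threshold, and their part in the values of the members was not tested. Beside Control, Memantine had positive values in 10 of 10 members with a median of 0.62, against 0.10 over all genes. Anxa1, Anxa4, Anxa5 and S100a11 did not keep that sign under each alternative. Again 0 of 10 had an unadjusted p below 0.05 (1.12% of all genes) and 0 passed the adjusted threshold (0%). Dysf was at 0.80 (SE 0.45, adjusted p = 1.00) in that comparison.

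Each preparation was also set against Control, a comparison that joins the effect of glutamate with that of the preparation. In Glutamate_vesicles against Control all 9 members besides Dysf were positive, with a median of 1.66 against 0.03 over all genes. Ahnak kept its sign in 14 of 15 alternatives. None of the 9 passed the adjusted threshold in the edgeR test, in which 0.0139% of all genes did. Before adjustment, 6 of 9 had a p below 0.05, beside 11.6% of all genes. These were S100a11 at 4.59 (SE 1.06), Myof at 2.83 (SE 0.89), S100a10 at 2.59 (SE 0.95), Anxa2 at 2.16 (SE 0.68), Anxa5 at 1.58 (SE 0.42) and Anxa6 at 0.85 (SE 0.36). In 7 of 9, these 6 and Anxa1, the groups did not overlap, beside 9.72% of all genes. Libraries of the same number deviated together in this comparison, and with the replicate number as a block 5 of 9 members passed, with adjusted p = 0.0224 for S100a11, 0.0274 for S100a10, 0.0326 for Anxa5, 0.0346 for Anxa2 and 0.0368 for Myof. The same fit passed 538 genes in all, 3.74% of those tested. It put 1 effect per number on all 18 libraries, although the numbers did not pair Glutamate_secret or Glutamate_BPC with Control. With RLE factors, the ribosomal RNA share as covariate or the 2 groups alone, 0 of 9 passed. Without Control 3, S100a11 was at 6.11 in place of 4.59 and Anxa2 at 3.25 in place of 2.16.

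In Glutamate_secret against Control all 10 members were positive, with a median of 1.61 against 0.06 over all genes. In Glutamate_BPC against Control all 10 were positive, with a median of 1.32 against -0.06. Ahnak kept its sign in only 12 of 15 alternatives in the former comparison and in 13 of 15 in the latter. No member and no gene passed the adjusted threshold of edgeR in either (0%). These comparisons share the Control libraries with Glutamate_vesicles, the group for whose level Dysf was selected, so Dysf is kept out of the lists that follow. The signs and medians include it. In Glutamate_secret, 11.8% of all genes had an unadjusted p below 0.05. The members among them besides Dysf were S100a10 at 2.76 (SE 0.96), Myof at 2.62 (SE 0.88), S100a11 at 2.60 (SE 1.00) and Anxa2 at 1.63 (SE 0.67). In Glutamate_BPC, 11.3% of all genes had such a p. The members among them besides Dysf were S100a11 at 2.52 (SE 0.99), S100a10 at 2.23 (SE 0.94), Anxa2 at 2.08 (SE 0.68), Anxa5 at 1.01 (SE 0.42) and Anxa6 at 0.92 (SE 0.36). Of the members besides Dysf, all except Anxa1 and Ahnak lay wholly above Control in Glutamate_secret, beside 6.88% of all genes. In Glutamate_BPC all except Myof, Anxa4 and Ahnak did, beside 12.2%. The comparisons of this and the preceding paragraph share the Control libraries, and Control 1 had the highest ribosomal RNA share of all libraries.

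**Figure D4:**
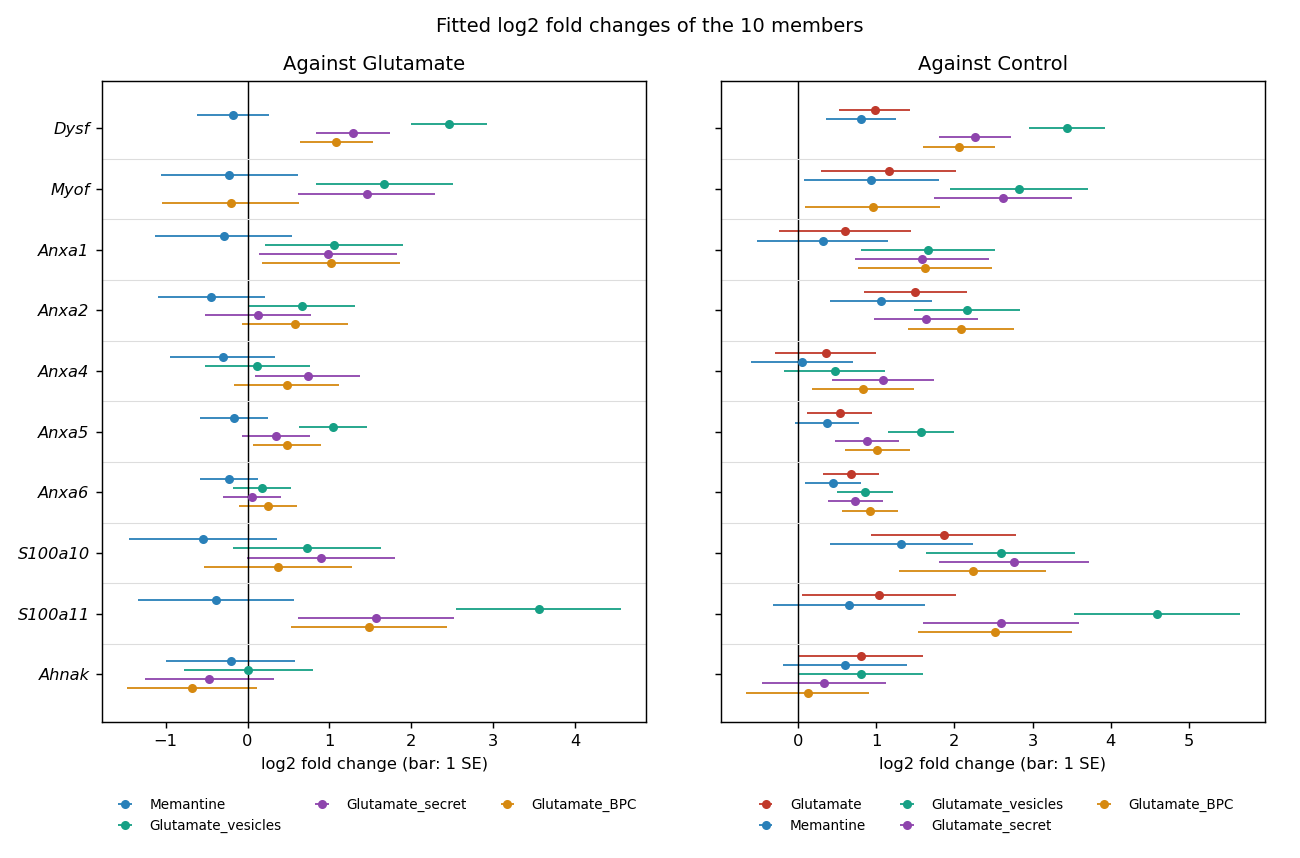
Fitted log2 fold changes (horizontal axes) of the 10 members against Glutamate (left) and against Control (right), with 1 point per group compared and a bar of 1 SE on each side. Dysf and S100a11 stand at 2.46 and 3.56 with vesicles against Glutamate, Ahnak stays near 0 there, and against Control all points are positive.

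A test of any difference among the 6 groups passed 0.00695% of all genes at the adjusted threshold, none of them among the 9 members besides Dysf. At an unadjusted p below 0.05 it found 3 of 9, S100a11 (adjusted p = 0.143), Anxa5 (adjusted p = 0.424) and Myof (adjusted p = 0.466), beside 7.75% of all genes. With the replicate number as a block 2 of 9 passed, S100a11 (adjusted p = 0.0126) and S100a10 (adjusted p = 0.0402), beside 3.45% of all genes, although the numbers paired the samples in only 4 of the 9 comparisons between groups.

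Other genes of membrane repair were followed as a list of 50, among them calpains, caveolins, further annexins and S100 genes, EHD proteins and the ESCRT proteins that pinch off damaged membrane. The files held 47 of them and 40 were tested. None passed the adjusted threshold of edgeR in any of the 9 comparisons or in the test of any difference among the groups. Of all genes, 0.0139% passed in Glutamate_vesicles against Control, 0.00695% in the test of any difference and 0% in each other comparison. In Glutamate against Control 29 of 40 were positive, with a median of 0.50, and 2 were higher at an unadjusted p below 0.05, beside the same 8.11% of all genes. These were Ehd4, which shapes membranes on the endocytic path, at 1.30 (SE 0.35, adjusted p = 0.282), and Anxa11 at 0.86 (SE 0.39, adjusted p = 0.592). Ehd4 was measured at 5.14, 5.55 and 6.52 CPM in Control and at 10.8, 14.9 and 16.7 CPM in Glutamate, without overlap. Anxa11 was measured at 6.28, 10.1 and 14.2 CPM in Control and at 20.5, 15.9 and 19.6 CPM in Glutamate, also without overlap.

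With vesicles the same list was evenly divided, 20 of 40 positive against Glutamate with a median of -0.01. None had an unadjusted p below 0.05, beside 1.08% of all genes. The 2 smallest p-values belonged to S100b, an S100 gene of astrocytes, at -1.25 (SE 0.79, adjusted p = 1.00), and Capns1, the small subunit of calpains, at 0.62 (SE 0.42, adjusted p = 1.00). S100b was measured at 1422, 441 and 1805 CPM in Glutamate and at 787, 424 and 333 CPM in Glutamate_vesicles, and the groups overlapped. Capns1 was measured at 135, 114 and 188 CPM in Glutamate and at 250.3, 209 and 215 CPM in Glutamate_vesicles, without overlap. In Glutamate_secret 24 of 40 and in Glutamate_BPC 21 of 40 were positive against Glutamate, with medians of 0.08 and 0.01. None had an unadjusted p below 0.05 in either, beside 0.681% and 1.07% of all genes. In Memantine against Glutamate 12 of 40 were positive with a median of -0.26, and 1 gene, Ehd4, was lower at an unadjusted p of 0.0316, with a log2 fold change of -0.81 (SE 0.34, adjusted p = 0.855), where 5.08% of all genes were at such a p. Over Control, 5 of 40 were higher at an unadjusted p below 0.05 with vesicles, 5 of 40 in Glutamate_secret and 4 of 40 in Glutamate_BPC, with Ehd4 and Anxa11 among them each time, where 11.6%, 11.8% and 11.3% of all genes were at such a p in either direction.

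The genes whose log2 CPM followed Dysf most closely over the 18 libraries were Gja5 (Pearson r = 0.89), Gldn (r = 0.88), Pear1 (r = 0.86), Itga5 (r = 0.85) and Arhgap22 (r = 0.85), out of 11879 genes ranked. The libraries share their treatment groups and, by number, their ribosomal RNA share, and the r values are a description. Gja5, a connexin gene, had a mean of 1.41 ± 0.93 CPM (SD, n = 3) in Glutamate and of 18.5 ± 4.42 CPM in Glutamate_vesicles. Itga5, the integrin chain that binds fibronectin, had 14.9 ± 7.64 CPM in Glutamate and 37.8 ± 5.95 CPM in Glutamate_vesicles. Among the members S100a11 stood closest to Dysf (r = 0.81, place 13), followed by Anxa5 (r = 0.76, place 27), Myof (r = 0.71, too low in level to be ranked) and Anxa2 (r = 0.68, place 103). Ahnak and Anxa4 were far from it, at r = 0.25 for both. These values include the differences between groups on which Dysf was selected. Over the deviations from the group means r with Dysf was 0.22 for S100a11, 0.15 for Anxa5, 0.27 for Myof and 0.11 for Anxa2. It was 0.16 for Ahnak, 0.05 for Anxa6, -0.16 for S100a10, -0.21 for Anxa1 and -0.48 for Anxa4.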

How the data were processed

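The values of 18 libraries in 6 groups of 3 were analysed. The paper describes libraries made from total RNA with a poly(A) selection step. The deposited values are expected counts, estimated read counts per gene that need not be whole. The authors used Trimmomatic and Cutadapt for trimming, ran Salmon against Ensembl release 106 transcripts of rn6 with the genome as decoy, and summed transcripts to genes with tximport. The submitters' processing notes also name STAR. The Salmon version and the strand setting are not given in the sources used here, and paper and labels name different library kits and platforms. Reads of paralogous or overlapping genes can be shared.

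Counts were rounded and tested with edgeR 4.0.16 (R 4.3.3), with TMM factors, filterByExpr (minimum count 10, minimum total 15), the quasi-likelihood F test over all 18 libraries and Benjamini-Hochberg adjustment over 14398 genes with a threshold of 0.05. The plan had been written for counts. The SE is the log2 fold change divided by the root of F. Log2 CPM used a prior count of 2. Member counts in comparisons with vesicles, and in the test of any difference among groups, leave out Dysf. So do the counts and lists by unadjusted p and by overlap in Glutamate_secret and Glutamate_BPC, against Glutamate and against Control. The script was tested on simulated data. Alternatives were edgeR's likelihood-ratio test, DESeq2 1.42.0, RLE factors, removal of 78 ribosomal RNA rows, no filter, a minimum count of 50, a replicate block, the log2 ribosomal RNA share as covariate, the 2 groups alone, and each library left out. No 2 libraries held identical values.

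The members, gene lists and marker lists were chosen with earlier results of these data known. All 10 members were named with their value in every library. Fold changes were given for all 10 in Glutamate against Control and in Glutamate_vesicles against Glutamate, and elsewhere for Dysf and members with an unadjusted p below 0.05. Of the 50 repair genes those called were named, or otherwise the 2 with the smallest p in those comparisons. The 5 genes with the highest Pearson r to Dysf had to reach a mean log2 CPM of 1. Other values named were chosen after they were seen.

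Replicate numbers come from the sample titles. They were taken to pair the samples where the deviations from the group means of all 3 same-numbered pairs correlated above 0.1. This held for Glutamate_vesicles against Control (r = 0.60, 0.50 and 0.21) and for Memantine, Glutamate_secret and Glutamate_BPC against Glutamate, and not for the other 5 comparisons. Library totals ranged from 8409574 to 17206354, and the limit for a count of 0 was set at 3 counts and covers counting error only.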

Additional observations from a re-analysis of the deposited data

How the results depend on the processing

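Dysf, selected on its measured values, is left out of the counts of this section. The number of the other members passing the adjusted threshold stayed at 0 in Glutamate against Control and in the comparisons of Memantine. It also stayed at 0 in those of the 3 preparations against Glutamate, in each case under each alternative run. Against Control it rose from 0. In Glutamate_vesicles against Control it was 1 by the likelihood-ratio test (beside 1.11% of all genes tested), 4 by DESeq2 (3.44%) and 5 with the replicate block (3.74%). In Glutamate_secret against Control, Myof and S100a10 passed by DESeq2 (3.12%), and these and S100a11 with the replicate block (4.86%), besides Dysf. There the likelihood-ratio test (1.55%) and the ribosomal RNA share as covariate (4.04%) passed Dysf alone of the members. In Glutamate_BPC against Control, Anxa2 and S100a10 passed with the replicate block (1.74%), besides Dysf. There the likelihood-ratio test (0.424%) and DESeq2 (1.78%) passed Dysf alone of the members. In the test of any difference among the groups, the number of members passing was 2 by the likelihood-ratio test (4.08%) and 3 by DESeq2 (4.98%). It was 2 with the replicate block (3.45%) and 1 with the ribosomal RNA share (2.67%). With single libraries left out of the quasi-likelihood test it was 0 to 1, the 1 being S100a11 without Memantine 3 (adjusted p = 0.0427). The cause was not tested. In the comparisons that the numbers pair, the block changed no other member's call. In Glutamate_secret and Glutamate_BPC against Control the numbers did not pair the samples (r = -0.45 and -0.26 for number 3). The log2 fold change of Ahnak with vesicles against Glutamate, 0.0063, lay at -0.00736 by DESeq2, -0.00711 with RLE factors, -0.00155 with a minimum count of 50, -0.0018 in the 2 groups alone, -0.12 with the replicate block and -0.71 with the ribosomal RNA share. With single libraries left out it ranged from -0.87 to 0.43, that of Anxa6 from -0.054 to 0.34 and that of Anxa4 from -0.20 to 0.97. Anxa4 in Glutamate against Control ranged from -0.50 to 0.68 and Dysf in Memantine against Glutamate from -0.65 to 0.075. With 3 libraries a group and counts of Myof and S100a11 down to 0 and 1, small differences were not detectable. Larger ones could miss the threshold too, as S100a11 did with vesicles against Glutamate at 3.56 (SE 1.01).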
